A study of Gallus gallus with 12 samples.

Results

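The cytosolic ribosomal protein genes are the genes for the proteins of the ribosome that works in the cell body. They were taken from the deposited expression table by symbol: names made of RPL or RPS and a number, with an optional A, X or L that further digits may follow. The stalk genes RPLP0, RPLP1 and RPLP2 were added. The kinases named RPS6K were left out. This gave 66 of 24353 genes, 42 for the large subunit (RPL) and 24 for the small subunit (RPS). The symbol RPSA, which the rule also allowed, named no row. RefSeq's table for GRCg7b holds 70 symbols of this kind, of which 62 are among the 66, and the others were not analysed here. The symbols RPL26, RPL39, RPS19 and RPS4X, 4 of the 66, are not in that table.

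RNA had been sequenced from feather follicles, epithelium and pulp together, cut from newly emerged nape feathers of F3 chickens from a cross of Huiyang Bearded cocks and White Leghorn hens, each library from a single plumage colour. There were 3 libraries from yellow and 3 from white follicles at 11 weeks of age, and 3 from yellow and 3 from white follicles at 7 weeks. All birds were CC at the recessive white locus and s/W at Silver, hence hens, and carried Dominant white as II or Ii. II was more frequent among the white birds and Ii among the yellow ones, and no white bird of 11 weeks was Ii. This genotype and colour are therefore partly confounded. Both genotypes occurred in both colours at 7 weeks, but their effects were not separated here. Libraries of the 2 ages share replicate numbers, and whether a shared number means the same bird is not settled by the sources. The study's methods describe plucking at several ages, while its results count a separate individual for each library. Libraries of the same colour and number had the same Dominant white genotype at both ages. The main age fit treats all libraries as independent. The values are FPKM, fragments counted per kilobase of gene and scaled to the mapped fragments of the library. Their sum per library ran from 640571 to 711831 at 11 weeks, against 700237 to 830214 at 7 weeks. The processed files hold no read counts, so they do not tell how many reads a value rests on, and precision is given by the spread between libraries. The study describes the libraries of a group as taken from different birds.

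Ribosomal proteins surround the ribosomal RNA and are made in near equal numbers, since a ribosome takes up each of them. Their messenger RNAs are short, abundant and translated together under the control of mTOR. A growing feather follicle builds keratin at a high rate from dividing epithelial cells above a dermal pulp, which calls for many ribosomes. In bulk tissue, fewer cells of a type and less RNA per cell cannot be told apart.

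Ribosomal protein genes were among the most highly expressed genes of the follicle. Their median FPKM over the 12 libraries was 1431, against 5.11 for the 14553 genes of the whole table that averaged 0.1 FPKM or more. Of the 178 genes that averaged 500 FPKM or more, 50 were ribosomal protein genes, and of the 112 at 1000 or more, 42 were. They made up 37 of the 100 genes of highest mean FPKM. Only RPL3L had a mean FPKM under 1. In all, 43 of the 66 lay within 2-fold of the median gene of the group, and the median was 1316 for the large subunit and 1535 for the small one.

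The 5 highest genes were RPLP1, RPS20, RPS10, RPL23 and RPS26. RPLP1, a protein of the stalk that recruits translation factors, had an FPKM of 3864, 3253 and 3622 in yellow and 3245, 3579.6 and 3779 in white follicles at 11 weeks. At 7 weeks it had 7110.4, 7681 and 7098 in yellow and 7603, 7420.1 and 7883 in white follicles. All 6 libraries of 11 weeks were below all 6 of 7 weeks, and the colours overlapped at both ages. The other stalk genes, which were chosen after their values were seen, were lower than RPLP1: RPLP0 averaged 1127 ± 91.1 FPKM at 11 weeks and 2160.1 ± 123 at 7 weeks, and RPLP2 470.1 ± 31.1 and 760.4 ± 56.3 (SD, n = 6 each). RPS20 and RPS10, in the head of the small subunit, averaged 2653 ± 199.7 and 2586 ± 103 FPKM at 11 weeks and 5142 ± 267 and 4554 ± 208 at 7 weeks. RPL23, which lies at the contact between the subunits, averaged 2019 ± 98.7 FPKM at 11 weeks and 3953 ± 392 at 7 weeks. RPS26, at the mRNA exit of the small subunit, averaged 1657 ± 105 FPKM at 11 weeks and 4176 ± 496 at 7 weeks. At 7 weeks the range of RPS26 overlapped those of RPS10, RPL23 and RPS20. At 11 weeks it lay below all of the other 4.

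The 5 lowest genes were RPL3L, RPS27L, RPS21, RPL26 and RPL7L1, and 3 of them are paralogues. RPL3L, which replaces RPL3 in striated muscle of mammals, ranged from 0 to 0.246 FPKM at 11 weeks and from 0.0612 to 0.221 at 7 weeks, against means of 1212 ± 47.0 and 1644 ± 56.1 (SD, n = 6 each) for RPL3. A listed 0 can be a failed estimate. RPS27L, a paralogue of RPS27 that responds to p53 in mammals, ranged from 3.9996 to 5.75 FPKM at 11 weeks and from 5.32 to 6.44 at 7 weeks. RPS21 ranged from 38.3 to 56.8 FPKM at 11 weeks and from 59.8 to 78.2 at 7 weeks. RPL26 ranged from 50.5 to 60.6 at 11 weeks and from 65.8 to 84.7 at 7 weeks.

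Paralogue levels followed no common pattern. The gene named RPL26L1 was the major one of its pair, with 781 ± 49.4 FPKM at 11 weeks and 1789.9 ± 185 at 7 weeks (SD, n = 6 each). That was 1377% ± 141 of RPL26 at 11 weeks and 2359% ± 147 at 7 weeks. RefSeq's table for GRCg7b holds no symbol RPL26, and whether the names of the pair are right was not tested. The genes lie side by side on chromosome 13 of GRCg6a, RPL26L1 from 9856064 to 9860391 and RPL26 from 9861485 to 9871095. RPL22L1 held 56.9% ± 4.52 of the RPL22 level at 11 weeks and 49.0% ± 4.22 at 7 weeks. RPL7L1, placed among the assembly factors of the large subunit in humans, held 5.47% ± 0.594 of the RPL7 level at 11 weeks and 3.75% ± 0.189 at 7 weeks. How the authors' counting divided reads between such related copies is not stated, so these ratios are uncertain.

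**Figure D1:**
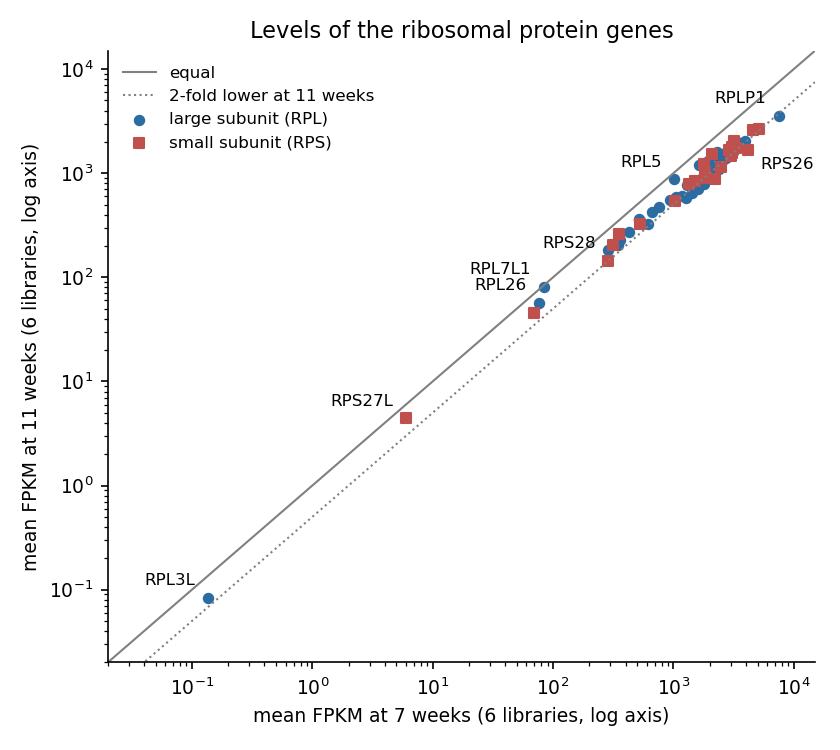
Mean FPKM of each of the 66 ribosomal protein genes at 11 weeks (vertical, log axis) against 7 weeks (horizontal, log axis), each a mean of 6 libraries; blue circles are large-subunit genes and red squares small-subunit genes, the solid line marks equal levels and the dotted line a level 2-fold lower at 11 weeks. All points lie below the line of equal levels, RPL7L1 closest to it, and 12 lie below the dotted line.

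The genes were spread over 28 chromosomes and unplaced scaffolds of GRCg6a, with 6 each on chromosomes 1, 2 and 4 and 3 on the Z chromosome (RPL17, RPL37 and RPS6). Their spans were short, with a median of 4046 bp and a range from 1220 bp (RPLP1) to 41574 bp (RPL37A). Levels were steady between libraries. The median coefficient of variation was 5.91% over the 6 libraries of 11 weeks and 8.22% over the 6 of 7 weeks, against 12.5% and 12.8% for the 128 other genes that averaged 500 FPKM or more. RPL3L, RPS19 and RPS28 varied most at both ages, with coefficients of 105%, 67.6% and 28% at 11 weeks and 55.0%, 62.6% and 34.1% at 7 weeks.

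Together the 66 genes held 10.1% ± 0.58 of the summed FPKM at 11 weeks and 16.3% ± 0.485 at 7 weeks (SD, n = 6 each). The share was 10.3, 10.4 and 10.6% in yellow and 9.22, 10.5 and 9.50% in white follicles at 11 weeks. At 7 weeks it was 16.4, 15.6 and 16.0% in yellow and 16.9, 16.5 and 16.6% in white follicles. The ages did not overlap. The colours overlapped at 11 weeks, while at 7 weeks the 3 yellow libraries lay below the 3 white ones by a small margin. That separation depends on the denominator. Without the other genes of 500 FPKM or more the colours overlapped at 7 weeks (30.8 to 35.3% in yellow, 33.6 to 35.7% in white). They also overlapped without chromosome 25. With genes that have a symbol they did not (22.2 to 23.6% and 24.1 to 24.4%). They also stayed apart without the mitochondrial genome, though barely (highest yellow library 17.855%, lowest white library 17.8563%). Without it and chromosome 25 the ranges were 24.0 to 25.9% in yellow and 26.2 to 26.5% in white. Nor did they overlap with genes averaging 1 FPKM or more, or with paralogues or RPS19 left out of the group. Large-subunit genes held 6.10% ± 0.317 at 11 weeks and 9.83% ± 0.248 at 7 weeks, and small-subunit genes 3.99% ± 0.27 and 6.5% ± 0.29. The share is a sum over the group, so it was described without a test.

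**Figure D2:**
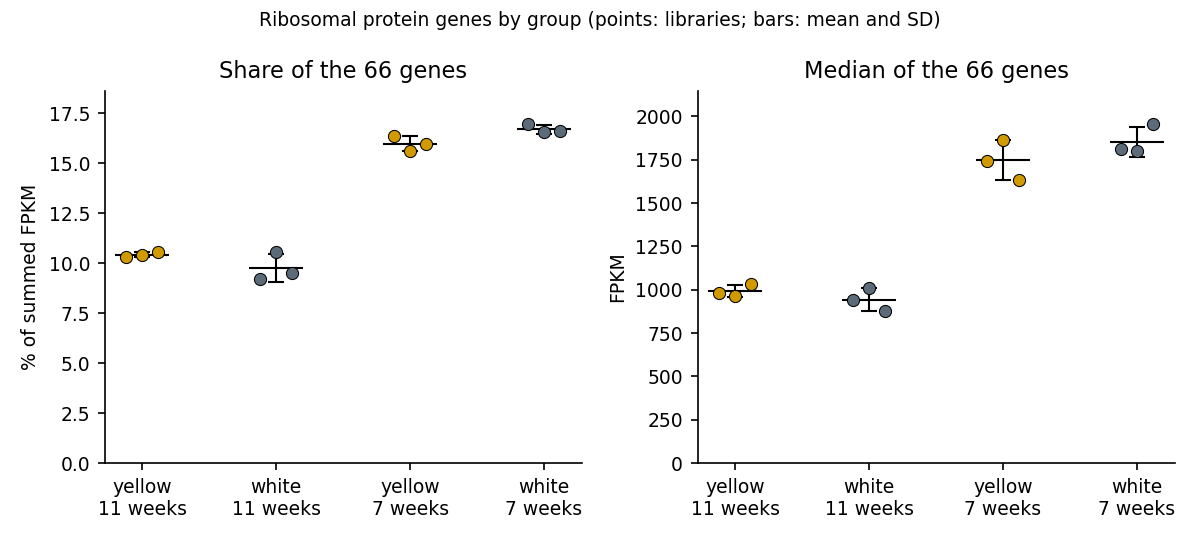
Left, percent of the summed FPKM held by the 66 genes; right, FPKM of the median gene of the group; points are libraries of yellow and white follicles at 11 and 7 weeks, and bars give the mean and SD of 3 libraries. The shares run from 9.22 to 10.6% at 11 weeks, all below the 15.6 to 16.9% of 7 weeks.

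Other parts of the sum moved with age too. Genes of the mitochondrial genome held 18.1% ± 1.51 of the summed FPKM at 11 weeks and 8.86% ± 1.09 at 7 weeks, without overlap. Genes of chromosome 25, which holds many feather keratin genes, held 23.0% ± 3.46 and 27.7% ± 1.9 (SD, n = 6 each). For chromosome 25 the ages overlapped (17.2 to 27.1% at 11 weeks, 25.2 to 29.5% at 7 weeks). They overlapped in white follicles (means 25.4 and 27.7%) and not in yellow ones (20.6 and 27.7%). Without both groups of genes in the denominator, the ribosomal protein share was 17.1% ± 1.05 at 11 weeks and 25.8% ± 0.914 at 7 weeks. These denominators were chosen after the data were seen.

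The age comparison asks how the follicle of 11 weeks differs from that of 7 weeks. Ribosomal protein genes were lower at 11 weeks as a body: the median log2 fold change was -0.82 for the mean of both colours, a level 1.77-fold lower, against 0.44 for the median of all 14553 genes tested. Log2 fold changes are on the scale of log2(FPKM + 0.1), fitted with limma across all genes. At an adjusted p of at most 0.05, 64 of the 66 fell and none rose, where 16.9% of all genes tested fell. With the study's added minimum of a log2 fold change of 1, 12 fell, where 2.96% of all genes did. The ages did not overlap in 60 of the 66, where all 6 libraries of 11 weeks were below all 6 of 7 weeks, as they were in 10.7% of all genes. RPL3L, RPL5, RPL7L1, RPS19, RPS28 and RPS27L overlapped between the ages. The order of the genes by level changed little, with a Spearman correlation of 0.973 between the ages across the 66 genes, which share libraries and are not independent replicates.

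The count past the minimum fold depends on scaling. In the values as deposited the median of all genes was itself shifted by 0.44. With median-of-ratios scaling, which moved that median to 0.03, the median ribosomal protein gene was at -1.28 and 56 fell by the study's rule. With quantile normalization, which gives all libraries 1 distribution, the median was at -0.37 against -0.05 for all genes. In that scaling 2 fell by the study's rule, 51 fell at the adjusted p alone and 2 rose. The group's median minus that of all genes was -1.27 as deposited, -1.30 with median-of-ratios scaling and -0.31 with quantile normalization. The decline relative to all genes therefore depends on scaling too. Without yellow replicate 4 of 7 weeks, the count by the study's rule was 19. Shares of all genes called are given for the values as deposited only, so the counts of other settings have none beside them.

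**Figure D3:**
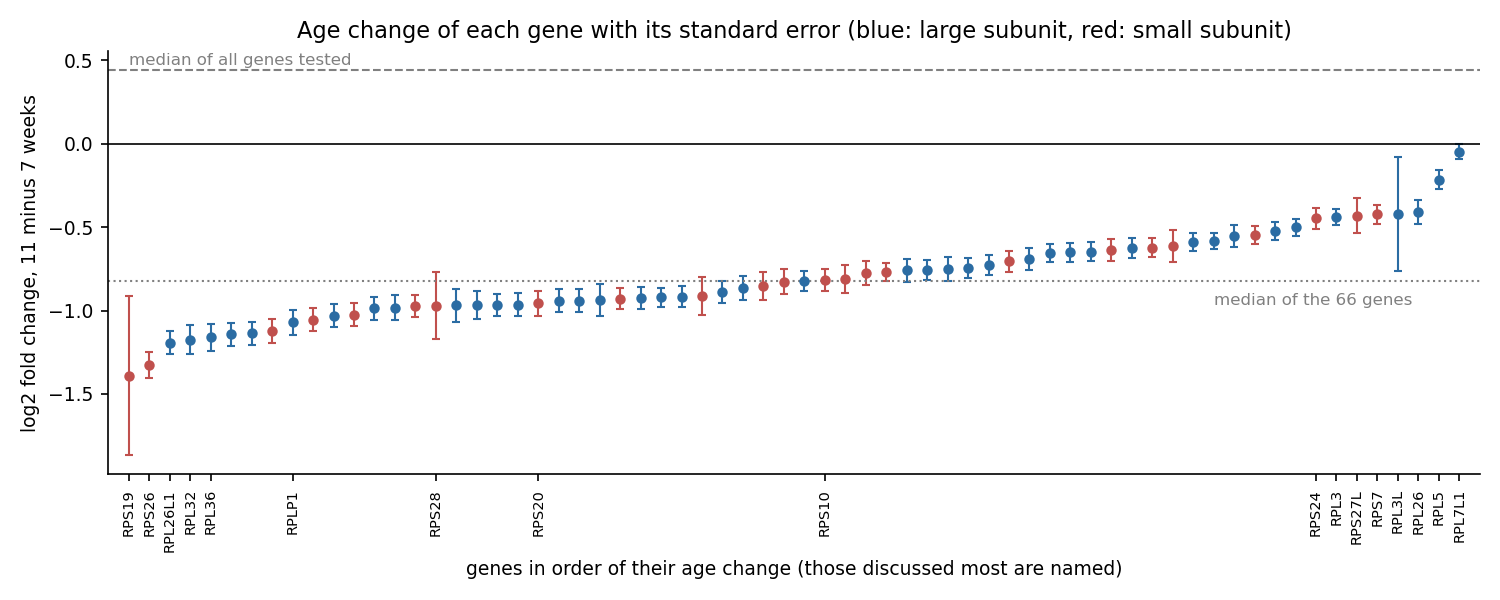
Log2 fold change between 11 and 7 weeks, mean of both colours, for each of the 66 genes in rank order, with its standard error from limma; blue is the large subunit and red the small one, the dashed line is the median of all genes tested (0.44) and the dotted line the median of the group (-0.82). Every estimate is below 0 and below the median of all genes.

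The largest declines were in RPS19, RPS26, RPL26L1, RPL32 and RPL36. RPS26 had an FPKM of 1801, 1492 and 1605 in yellow and 1642, 1695 and 1705 in white follicles at 11 weeks, against 3852, 4240.4 and 3501 in yellow and 4897, 4034 and 4529.6 in white follicles at 7 weeks. The difference was -1.33 ± 0.08 (SE) on the log2 scale, with an adjusted p of 5.4e-07 from limma, and the ages lay far apart in both colours. RPL26L1, a paralogue of a protein near the exit tunnel of the large subunit, had a log2 fold change of -1.19 ± 0.07 (SE) and an adjusted p of 4.74e-07. RPL32 and RPL36, of the large subunit, fell as well, with log2 fold changes of -1.17 and -1.16. RPL27 (-1.14), RPL22 (-1.14), RPS15 (-1.12) and RPLP1 (-1.07) followed. Apart from RPS19, described next, none of these genes overlapped between the ages.

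RPS19, whose gene is mutated in many human patients with Diamond-Blackfan anaemia, stood apart from the others. It had 497, 1618 and 490.5 FPKM in yellow and 462, 1642 and 513 FPKM in white follicles at 11 weeks. At 7 weeks it had 3364, 1593 and 1052 FPKM in yellow and 1547, 1268 and 4516 FPKM in white follicles. In each group a single library was high: replicate 3 of both colours at 11 weeks, and yellow replicate 1 and white replicate 3 at 7 weeks. The gene lies on the unplaced scaffold KZ626826.1. Its log2 fold change of -1.39 ± 0.48 (SE) had an adjusted p of 0.0218 from limma. It did not pass an adjusted p of 0.05 with yellow replicate 1 or white replicate 3 of 7 weeks left out, nor with yellow replicate 1, white replicate 1 or white replicate 4 of 11 weeks left out, when it lay from -1.26 to -1.11, nor with quantile normalization (-0.93). Without RPS19, the group held 9.97% ± 0.537 of the summed FPKM at 11 weeks and 16.1% ± 0.466 at 7 weeks.

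Among the 65 genes that averaged 1 FPKM or more, the smallest changes were in RPL7L1, RPL5, RPL26, RPS7 and RPS27L. RPL7L1 had an FPKM of 76.5, 73.3 and 78.4 in yellow and 87.2, 83.9 and 85.2 in white follicles at 11 weeks, against 81.9, 83.2 and 89.0 in yellow and 78.5, 87.5 and 80.4 in white follicles at 7 weeks. The ages overlapped, and the log2 fold change of -0.05 ± 0.05 (SE) had an adjusted p of 0.364 from limma. Its direction depends on scaling, being 0.14 with equal totals, 0.01 with equal totals over genes under 500 FPKM, and 0.20 with quantile normalization. RPL5, which carries 5S ribosomal RNA into the large subunit together with RPL11, had an FPKM of 916, 856 and 918 in yellow and 851, 882 and 822 in white follicles at 11 weeks, against 930.0, 1048 and 900.5 in yellow and 1103, 1032 and 1094 in white follicles at 7 weeks. The yellow libraries of the ages overlapped and the white ones did not. RPL5 fell, with a log2 fold change of -0.22 ± 0.06 (SE) and an adjusted p of 0.00478 from limma, but was at -0.03 with equal totals, where it missed the threshold, and at 0.24 with quantile normalization. RPL26 (-0.41), RPS7 (-0.42) and RPS27L (-0.43) fell too, with adjusted p from limma of 0.000331, 4.23e-05 and 0.0031, and RPS7 was at 0.0026 with quantile normalization. RPS27L missed the threshold with equal totals (-0.25). RPL3, which reaches toward the catalytic centre, was at -0.44 (adjusted p = 1.73e-05) in the values as deposited and at 0.11 with quantile normalization.

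By subunit, the median log2 fold change was -0.84 for the 42 large-subunit genes and -0.82 for the 24 small-subunit genes, with ranges of -1.19 to -0.05 and -1.39 to -0.42. The difference between the subunits was not tested. The quartiles of all 66 were -0.97 and -0.63.

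Gene span and level moved with the age change throughout the table. Among the other genes tested, the median log2 fold change was -0.35 for the 1116 genes with a span under 2000 bp, -0.17 for the 2516 between 2000 and 5000 bp, 0.18 for the 2853 between 5000 and 10000 bp and 1.02 for the 2170 of 50000 bp or more. Ribosomal protein genes had lower medians than the other genes of their span: -1.05 for the 6 genes under 2000 bp, -0.86 for the 40 between 2000 and 5000 bp and -0.61 for the 17 between 5000 and 10000 bp. The remaining 3 genes, RPL12, RPS24 and RPL37A, had spans between 20000 and 50000 bp and a median of -0.97, where the 2940 other genes of that span had a median of 0.76. Across the 66 genes the Spearman correlation of span and log2 fold change was 0.576, and across the 14487 other genes 0.481. Genes share libraries, so these are descriptions.

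The other 128 genes that averaged 500 FPKM or more had a median log2 fold change of -0.58, against -0.92 for the 50 ribosomal protein genes of that level. Among the 441 other genes averaging 100 FPKM or more with a span under 10000 bp, the median was -0.70 and 70.7% fell at the adjusted p alone, against a median of -0.86 for the 58 ribosomal protein genes of that kind. These bins were chosen after the data were seen. The part of transcript length, level or RNA quality in the age change was not tested.

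**Figure D4:**
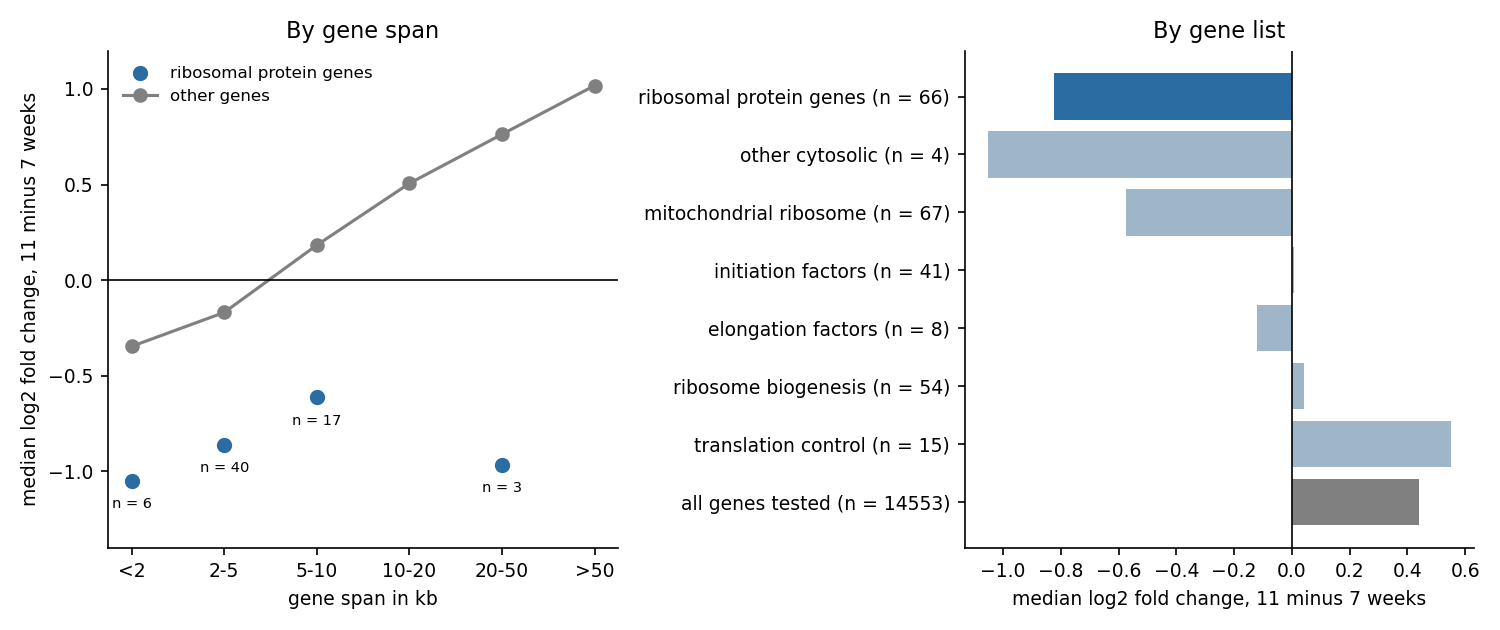
Left, median log2 fold change between 11 and 7 weeks by gene span in kb, for other genes (grey line) and for the ribosomal protein genes (blue points with their number). Right, the median by gene list, with the number of genes tested; the ribosomal protein genes are at -0.82, the mitochondrial ribosome at -0.57, initiation factors at 0.01 and all genes tested at 0.44.

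The decline at 11 weeks was found in both colours. Yellow follicles had a median log2 fold change of -0.76, against 0.41 for all genes tested, and 60 of the 66 fell at the adjusted p alone, where 12.7% of all genes fell. By the study's rule 8 fell, where 2.14% of all genes did, among them RPS26 (-1.24), RPL32 (-1.07) and RPL27 (-1.06). That count was 1 without yellow replicate 3 and 14 without yellow replicate 4 of 7 weeks. White follicles had a median of -0.91, against 0.47 for all genes, and 63 fell at the adjusted p alone, where 14.4% of all genes fell. By the study's rule 23 fell, where 4.34% of all genes did, among them RPS28 (-1.62), RPS26 (-1.41) and RPL26L1 (-1.33). The age changes of the colours come from separate libraries of each age.

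The test of the difference between the colours' age changes called none of the 66 genes, and 0% of all genes tested. An unadjusted p under 0.05 was found for 7 of the 66, where 6.69% of all genes had it. The smallest adjusted p of a ribosomal protein gene was 0.731 from limma, for RPS28. The median of that difference was 0.13, against -0.07 for all genes, with 63 of the 66 above 0, or 42 of the 66 with quantile normalization. Of all 14553 genes tested, 8553 were below 0 in the values as deposited.

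The colour comparison asks which genes accompany yellow plumage at each age. No ribosomal protein gene passed an adjusted p of 0.05 between yellow and white follicles at 7 weeks, where 0.0288% of all genes tested did. An unadjusted p under 0.05 was found for 3 of the 66, where 15% of all genes had it. The median log2 fold change of yellow against white was -0.10, against 0.10 for all 13895 genes tested. Below 0 were 57 of the 66, and 5143 of all 13895. With median-of-ratios scaling all 66 were below 0, and with quantile normalization 34 were. The quartiles were -0.17 and -0.05.

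RPS28, RPS24 and RPS2, all of the small subunit, had the lowest values at 7 weeks. RPS28 had 293, 170.5 and 171 FPKM in yellow follicles, against 329.8, 353 and 409.6 in white follicles (difference -0.83 ± 0.21 SE on the log2 scale, adjusted p = 0.278, limma). At 11 weeks it had 159, 144 and 193 FPKM in yellow and 74.0, 167 and 132 in white follicles (difference 0.48 ± 0.29 SE, adjusted p = 0.786). The colours did not overlap at 7 weeks and overlapped at 11 weeks, and the difference between the ages, 1.30 ± 0.40 (SE), missed the threshold as given above.

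RPS24 had 1736, 1949 and 1696 FPKM in yellow follicles at 7 weeks, against 2477, 2199.6 and 2491 in white follicles (difference -0.41 ± 0.10 SE on the log2 scale, adjusted p = 0.276). At 11 weeks it had 1551, 1464 and 1475 FPKM in yellow and 1473, 1616 and 1519 in white follicles. RPS2, which lines the mRNA entry, had 2849, 2694 and 2329 FPKM in yellow and 3157, 3151 and 3293 in white follicles at 7 weeks (difference -0.29 on the log2 scale, adjusted p = 0.325). In these genes the yellow libraries of 7 weeks lay below the white ones without overlap, but the difference did not pass the test over all genes. The same held for 9 of the 66 genes at 7 weeks, and for 8.04% of all genes tested. The highest values at 7 weeks were 0.08 for RPS21, 0.06 for RPL3 and 0.06 for RPL6, and all 3 were below 0 with median-of-ratios scaling (-0.03, -0.05 and -0.05).

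At 11 weeks 65 of the 66 genes were tested, since RPL3L fell under the mean FPKM of 0.1 needed. None passed an adjusted p of 0.05, as for all 14806 genes (0%), and an unadjusted p under 0.05 was found for 1 of the 65, where 7.23% of all genes had it. The median log2 fold change was 0.05, against 0.03 for all genes. Of the 65, 49 were above 0 and 16 below, where 6457 of all 14806 genes were below 0. With equal totals over all genes, 60 were above 0, with a median of 0.12 against 0.10 for all genes. With equal totals over genes under 500 FPKM, 32 were above 0. The highest values were RPS28 (0.48), RPS21 (0.23) and RPS27L (0.20), and the lowest RPL12 (-0.21), RPL7L1 (-0.17) and RPL22L1 (-0.11). RPL7L1 was the gene with the unadjusted p under 0.05: its yellow libraries of 11 weeks were all below the white ones, with a standard error of 0.06 and an adjusted p of 0.639 from limma.

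**Figure D5:**
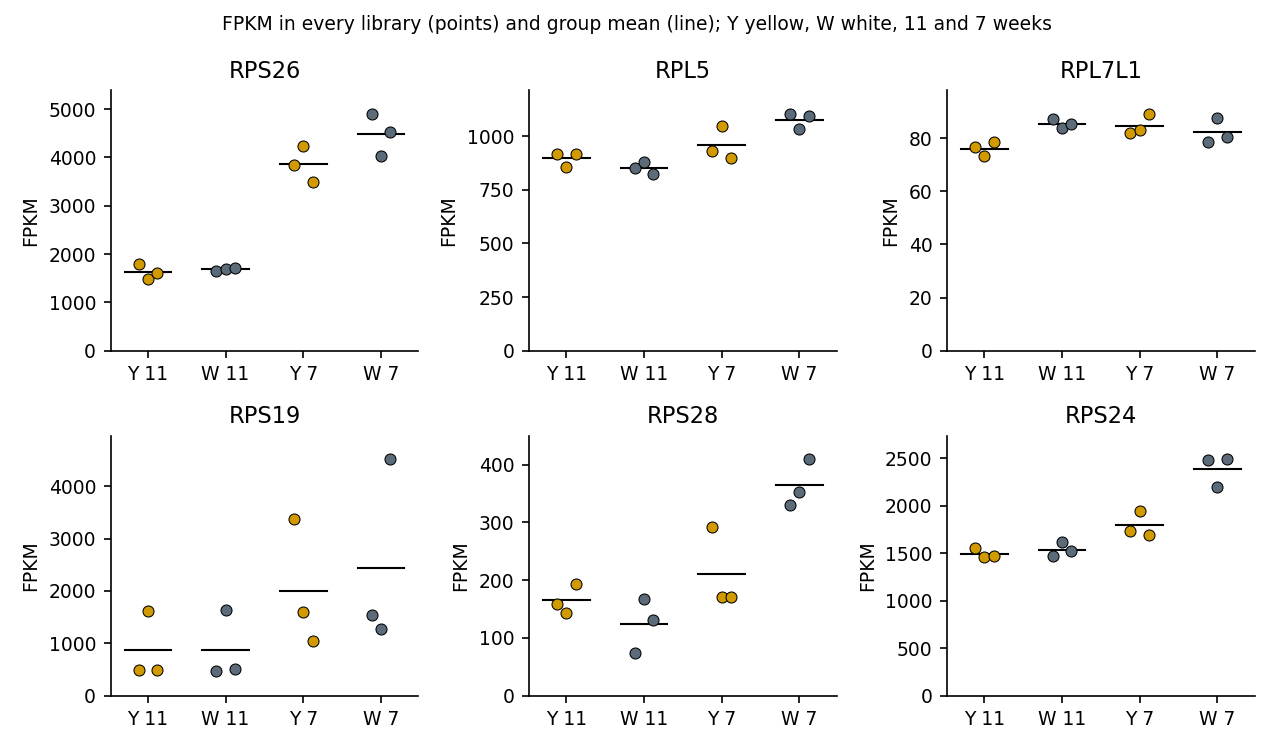
FPKM of RPS26, RPL5, RPL7L1, RPS19, RPS28 and RPS24 in each library (points) with the group mean (line), for yellow (Y) and white (W) follicles at 11 and 7 weeks. RPS26 separates the ages, RPL7L1 does not, and RPS19 has a single high library in each group.

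In some libraries most of the genes lay on the same side of their group means, while other libraries were near an even split. For each gene the deviations of a group sum to 0, so the libraries of a group are not independent here. In yellow replicates 1, 3 and 4 of 7 weeks 30, 56 and 6 of the 65 genes that averaged 1 FPKM or more were above the mean. The median deviation from the group mean was 0.11 and -0.10 on the log2 scale in replicates 3 and 4, while other genes had medians of -0.14 and 0.13. Among white libraries of 7 weeks the number above the mean was 32, 16 and 56, among yellow libraries of 11 weeks 44, 10 and 41, and among white libraries of 11 weeks 16, 52 and 28.

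The 4 cytosolic ribosomal protein genes outside the naming rule, from a list of the other translation genes, all fell with age, with a median of -1.05, and did so under all 4 alternative scalings. FAU, which encodes a fusion of a ubiquitin-like protein and a ribosomal protein, averaged 917 ± 146 FPKM at 11 weeks and 1975 ± 316 FPKM at 7 weeks (SD, n = 6 each). RPL36AL averaged 533 ± 32.1 FPKM at 11 weeks and 1070.5 ± 122 at 7 weeks.

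Of 67 genes for proteins of the mitochondrial ribosome, 55 fell and 2 rose, with a median of -0.57. The count that fell ran from 48 with equal totals to 65 with median-of-ratios scaling. MRPL43, like the next genes a part of its large subunit, averaged 80.1 ± 11.3 FPKM at 11 weeks and 221 ± 60.6 at 7 weeks, MRPL24 88.1 ± 4.24 and 206 ± 22.0, and MRPL54 73.9 ± 6.69 and 181 ± 19.4 (SD, n = 6 each).

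Counts of genes that rose or fell stand beside the shares of all genes tested at the adjusted p alone. In the values as deposited, 51.9% rose with age and 16.9% fell. These shares do not apply to counts under other scalings, for which no share of all genes is given. Of 41 initiation factor genes tested, 17 rose and 13 fell (median 0.01), and of 54 genes of ribosome biogenesis 24 rose and 19 fell (median 0.04). Both lists depend on scaling: with median-of-ratios scaling their medians were -0.44 and -0.41, with 28 and 34 genes that fell. EIF4A2, an RNA helicase, had a log2 fold change of 0.17, or -0.28 with median-of-ratios scaling, while EIF3K (-0.84), of the factor that binds the small subunit, and EIF1 (-0.74), which helps to choose the start codon, fell. In ribosome biogenesis, NCL, a nucleolar RNA-binding protein, was at 0.24, or -0.21 with median-of-ratios scaling, while NHP2 (-1.21), of the particles that modify ribosomal RNA, and NIP7 (-1.14), an assembly factor, fell. Of 8 genes in the elongation factor list, which also holds TPT1, 2 rose and 3 fell (median -0.12, or 0.29 with quantile normalization). EEF1A1, which brings aminoacyl-tRNA to the ribosome, averaged 4150.3 ± 112 FPKM at 11 weeks and 4701 ± 369.8 at 7 weeks. Its log2 fold change of -0.18 passed the test (adjusted p = 0.0373, limma), but was at 0.24 with quantile normalization. TPT1 (-0.48), which binds that factor, and EEF1D (-0.59), part of its exchange factor, fell, and TPT1 missed the threshold with quantile normalization (-0.03, adjusted p = 0.755). Of 15 genes that control translation 8 rose and 5 fell (median 0.55), or 6 and 7 with median-of-ratios scaling (median 0.10). EIF4EBP1 and EIF4EBP2, which bind the cap-binding factor and are released from it by mTOR, fell, with log2 fold changes of -0.66 and -0.60, and PABPC1, which binds poly(A) tails, was at 0.15 (adjusted p = 0.0848), or -0.30 with median-of-ratios scaling. No gene of these lists was called between the colours at either age or between their age changes.

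Markers of cell types were measured beside these genes. Their counts in the values as deposited stand beside the 51.9% of all genes that rose and the 16.9% that fell. Their counts under other scalings have no such share beside them. In the values as deposited, 6 of 9 genes of a keratinocyte list rose and 1, KRT14, fell (summed FPKM from 1045 to 1601 at 11 weeks and from 1123 to 1339 at 7 weeks). That list holds desmosome genes as well as basal keratins, so its count does not stand for basal cells alone. Of the 3 with the highest mean FPKM, KRT5 had a log2 fold change of 0.02 (adjusted p = 0.87, limma). KRT14 was at -1.05 and DSP, a desmosome gene, at 1.11. The direction of KRT5 depends on scaling, being -0.43 with median-of-ratios scaling and 0.45 with quantile normalization. Of 10 dermal pulp markers 6 rose and 1 fell (1685 to 3697 and 1836 to 2977). Of 7 immune markers 6 rose (20.9 to 40.6 and 13.4 to 24.9), and of 6 endothelial markers 6 rose (25.96 to 46.3 and 14.7 to 25.7). With quantile normalization 2 of the immune and 2 of the endothelial markers rose, and 1 immune marker fell. Of 4 erythroid markers tested 3 fell (34.4 to 180.0 and 80.6 to 217), of 7 striated muscle markers tested 1 fell (16.7 to 75.4 and 32.2 to 61.2), and of 9 melanocyte markers 2 rose and 2 fell (143 to 647 and 202 to 1688). Of 19 proliferation genes 10 rose and 6 fell (446 to 516 and 481 to 595), and with median-of-ratios scaling 1 rose and 11 fell. Scaling moved other lists as well. With median-of-ratios scaling 6 genes of the keratinocyte list rose and 3 fell, and 4 dermal pulp markers rose and 3 fell. In that scaling 4 erythroid and 4 striated muscle markers fell, and 2 melanocyte markers rose and 3 fell. With equal totals no striated muscle marker passed the test, and 4 melanocyte markers rose and 2 fell. Of the striated muscle and the erythroid markers, 1 each was listed at 0 in every library, and 3 and 4 had a mean FPKM under 0.1. The part of cell makeup in the age change of the ribosomal protein genes was not tested.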

How the data were processed

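RNA sequencing of 12 feather follicle libraries was analysed, 3 per colour and age. Paired-end reads were filtered by the authors, who aligned them to GRCg6a (Ensembl release 96) with TopHat2 on an index of Bowtie2 version 2.2.3, counted reads per gene with HTSeq version 0.6.0 and deposited FPKM values for 24353 genes, of which 10665 have no symbol. The reads behind a value cannot be had from FPKM, and 562 values lie above 0 and below 1e-06. How strand was treated in counting, and the program that wrote the FPKM, are not given in the sources used here.

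Values of log2(FPKM + 0.1) were fitted in R version 4.3.3 by limma, version 3.58.1 (eBayes with trend, Benjamini-Hochberg adjustment), on genes averaging 0.1 FPKM or more. Colours were compared within each age on 6 libraries, and ages and the interaction on all 12, with a term per group. Calls used an adjusted p of at most 0.05, alone or with the study's minimum absolute log2 fold change of 1. A pseudocount understates the change of low genes. The DEGseq test of the study needs counts and was not repeated. The fit of age was run on simulated data with independent noise for each gene. That simulation held no shift of whole libraries and no shared birds, so it does not bear on either. p-values measure the spread between these libraries, which the study describes as from different birds within a group.

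The genes, the lists and the tests were chosen with earlier results of these data known. Genes named were the 5 highest and 5 lowest by mean FPKM, the 5 highest and 5 lowest by age change, the 3 highest and 3 lowest by colour at each age among those averaging 1 FPKM or more, paralogues with their parent, up to 10 past the study's thresholds in a comparison and up to 3 a list by mean FPKM. Some genes under this rule are not reported here. The alternatives tried were a pseudocount of 1 or of 0.01, no filter, a filter at a mean of 1, median-of-ratios scaling, equal totals over all genes or over those under 500 FPKM, quantile normalization, eBayes without trend, blocks for replicate number and bird label, and leaving out each library. The share was also taken with other denominators and with paralogues or RPS19 left out of the group. No protein or promoter sequences were used here.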

Additional observations from a re-analysis of the deposited data

How the results depend on the processing

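The share of summed FPKM held by the ribosomal protein genes was 0.618 times as high at 11 as at 7 weeks, and between 0.612 and 0.629 with each library left out. The ratio was 0.66 without the other genes of 500 FPKM or more in the denominator and, in denominators chosen after the data were seen, 0.688 without the mitochondrial genome and 0.665 without it and chromosome 25. A denominator of genes with a symbol, of genes averaging 1 FPKM or more or without chromosome 25 moved it by less than the spread between libraries. So did leaving paralogues or RPS19 out of the group. Without chromosome 25 the group held 13.1% at 11 weeks and 22.6% at 7 weeks, a lower ratio than in the full sum. The variant without short proteins was not run, since protein lengths were not used here.

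Scaling moved the age results most. No share of all genes is given for the counts of these settings. For the mean of both colours, in yellow and in white, median-of-ratios scaling called 56, 43 and 61 genes by the study's rule (medians -1.28, -1.16 and -1.41), equal totals 3, 1 and 8 (-0.64, -0.56 and -0.73) and quantile normalization 2, 0 and 3 (-0.37, -0.36 and -0.36). Equal totals over genes under 500 FPKM called 11 in white (median -0.81). With each library left out, the counts were 11 to 19, 1 to 14 and 17 to 25, the medians -0.86 to -0.81, -0.78 to -0.71 and -0.92 to -0.89, and the counts at the adjusted p alone 63 to 64, 59 to 60 and 63 to 64. At the adjusted p alone no alternative moved a count by more than 1.5 times.

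Between colours no alternative called a ribosomal protein gene at either age or between the ages. The median was -0.21 with median-of-ratios scaling and -0.0031 with quantile normalization at 7 weeks (-0.14 to -0.05 with each library left out) and 0.02 to 0.09 at 11 weeks with each library left out. At 11 weeks it was 0.12 with equal totals over all genes and -0.0003 with equal totals over genes under 500 FPKM. The median difference between the ages was 0.23, 0.0505 and 0.0479 with median-of-ratios scaling, equal totals over genes under 500 FPKM and quantile normalization (0.09 to 0.18 with each library left out). Directions of single genes turned with scaling: at 7 weeks RPL3 (-0.0453), RPL6 (-0.0516) and RPS21 (-0.0317) between colours with median-of-ratios scaling, and RPS21 without white replicate 1 (-0.0058 to 0.1877 over each library left out). With age, RPL7L1 turned with equal totals (0.14), with equal totals over genes under 500 FPKM (0.0099) and with quantile normalization (0.20), as did RPL3 (0.11), RPL5 (0.24) and RPS7 (0.0026) with quantile normalization. The cause was not tested.

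Same-numbered libraries of the colours deviated from their group means with correlations of -0.0364 and 0.235 at 7 weeks and of 0.198, 0.0461 and 0.17 at 11 weeks across 11242 genes, and same-numbered libraries of the ages with 0.247, 0.0964 and 0.139 in yellow and 0.253 and 0.267 in white. Not every pair passed 0.1, so the numbers were not taken to pair the libraries, although 6 of 6 yellow libraries correlated best with their own number at the other age. White replicates 1 and 3 did so too at both ages. Between colours, where a shared number cannot mean the same bird, all libraries of 11 weeks correlated best with their own number. At 7 weeks only replicate 3 of each colour did. What a shared number stands for was not tested. For the ages, a block of colour and replicate number together treats a number shared by both ages as 1 bird. In white only replicates 1 and 3 are shared. With this block, 15 genes fell by the study's rule for the mean of both colours, 8 in yellow and 24 in white. For the mean of both colours, 64 fell at the adjusted p alone. With a block of replicate number, none was called between colours. The values carry no read counts, so no limit from depth was set for a gene, and RPL3L is too low for a reading.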
